A study of Mus musculus with 16 samples.

Results

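Complement components and receptors were followed in adult mouse lung after exposure to filtered air or second-hand smoke (SHS) before birth and in adult life. The genes considered were 9, chosen by symbol: C1qa, C1qb, C1qc, C3, C4b, Cfb, Cfd, C3ar1 and C5ar1. All probe sets of the array that the platform annotation assigns to 1 of these symbols alone were taken, which gave 11 probe sets of 6 genes (C1qa, C1qb, C1qc, Cfb, C3ar1 and C5ar1) out of 45037 probe sets and 18193 named genes. C4b had 1 probe set, which the annotation assigns to both C4a and C4b, so its values are given as those of the shared probe set 1418021_at and belong to neither gene by name. C3 and Cfd were not analysed here.

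The study crossed 2 exposures and measured total RNA of the left lung on Affymetrix mouse 430 2.0 arrays, with 4 animals and 4 arrays per group according to the design text. Group AA had air in utero and air as adults, AS had air in utero and SHS as adults, SA had SHS in utero and air as adults, and SS had SHS at both times. The smoke was sidestream smoke with 10 mg/m3 of suspended particles, and exposures lasted 5 hours daily, 7 days weekly. All mice were Balb/c males aged 15 weeks, and the labels do not say which of them were littermates. AS replicates 3 and 4 differed by little more than technical noise (variable bright probe sets differed 1.34 times as much as stable ones), as did SS replicates 1 and 2 (1.26 times), against 2.85 to 5.91 times in the other 22 pairs of arrays within groups. Both pairs therefore enter as their means, and n is 4 for AA, 3 for AS, 4 for SA and 3 for SS, or 14 samples in all. Array medians ran from 6.9 to 6.93 on the log2 scale, and 7 defining genes of lung epithelium and endothelium, among them Sftpc and Scgb1a1, had mean log2 values of 13.62 to 13.9 in every sample. The highest of these was the averaged AS sample, at 0.24 relative to the AA mean, against -0.05 to 0.05 in the other samples. The averaged AS sample had the lowest array weight when weights were estimated with limma (0.265, against 0.584 to 1.86 in the others). Several C1q and C5ar1 differences that rest on it are therefore given without it too.

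Complement is a cascade of plasma and tissue proteins that marks particles and dying cells for uptake. C1q, built of the chains encoded by C1qa, C1qb and C1qc, starts the classical pathway and is made mainly by tissue macrophages. C4 and C2 carry the signal on to C3, while factor B (Cfb) and factor D (Cfd) amplify it in the alternative pathway. Fragments released from C3 and C5 act on the receptors C3ar1 and C5ar1 of myeloid cells, and in the lung C5ar1 is known for drawing neutrophils and monocytes to inflamed tissue.

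The 3 C1q genes lie next to each other on chromosome 4, and their brightest probe sets moved together across samples. C5ar1 carried the largest differences between groups that both probe sets of a gene shared. Promoter windows of these genes are therefore shown. The RefSeq table of promoters (build GRCm38.p6, 250 bases before to 50 bases after the start of the gene, read in the direction of the gene) matched 4 of the 6 genes: C1qb, C1qc, C3ar1 and C5ar1. The windows below are those of C1qb (chr4:136886151-136886450, minus strand), C1qc (chr4:136892865-136893164, minus strand) and C5ar1 (chr7:16259289-16259588, minus strand). Capitals mark the letters AGGAAGT or their reverse complement, which hold the core bound by the myeloid transcription factor PU.1.
C1qb: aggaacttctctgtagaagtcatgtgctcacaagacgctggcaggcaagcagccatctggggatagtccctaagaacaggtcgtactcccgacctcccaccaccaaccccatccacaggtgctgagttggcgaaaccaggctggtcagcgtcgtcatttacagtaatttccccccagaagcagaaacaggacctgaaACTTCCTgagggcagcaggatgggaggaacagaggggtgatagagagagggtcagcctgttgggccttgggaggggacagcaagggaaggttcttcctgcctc
C1qc: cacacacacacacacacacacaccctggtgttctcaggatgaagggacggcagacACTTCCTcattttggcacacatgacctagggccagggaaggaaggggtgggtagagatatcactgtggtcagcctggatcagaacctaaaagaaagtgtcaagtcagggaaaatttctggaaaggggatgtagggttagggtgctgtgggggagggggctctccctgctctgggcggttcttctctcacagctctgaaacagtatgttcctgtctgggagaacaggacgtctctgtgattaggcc
C5ar1: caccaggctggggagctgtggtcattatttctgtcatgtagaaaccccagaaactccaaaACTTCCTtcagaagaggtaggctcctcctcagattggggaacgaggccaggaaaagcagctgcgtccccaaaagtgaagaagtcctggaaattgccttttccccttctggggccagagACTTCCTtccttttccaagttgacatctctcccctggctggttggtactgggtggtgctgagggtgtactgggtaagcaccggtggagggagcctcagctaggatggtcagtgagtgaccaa

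The marked letters occurred 1 time in the C1qb window, starting 53 bases before the gene's start, and 1 time in that of C1qc, starting 195 bases before it. In the C5ar1 window they occurred 2 times, starting 190 and 72 bases before the start. All of these matches were to the reverse complement. The letters occurred 0 times in the C3ar1 window. Of all 32851 promoter windows in the table, 9.35% held these letters on either strand. The letters TGCTGAC (either strand), part of the site bound by Maf factors, was in 0 of the 4 windows and in 4.67% of all. The motifs do not overlap each other. A match is a description of letters, and no binding was measured.

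The first question was whether smoke in adult life changed these genes. No measured member passed the test: 0 of 11 probe sets reached an adjusted p of 0.05 in AS minus AA (limma with Benjamini-Hochberg adjustment over all probe sets, background 1.55% of all probe sets), and 0 of 11 passed in SS minus SA (background 1.64%). At an unadjusted p under 0.05 there were 1 and 0. Averaged over both in-utero groups, which uses all 14 samples, adult SHS again gave 0 of 11 (background 5.95%), with 0 at an unadjusted p under 0.05. The median member difference of that average was -0.01 on the log2 scale, and the median over all probe sets was 0.01. Its 95% intervals stayed between -0.43 and 0.29 for all 11 probe sets and reached a median of 0.20 to either side of the estimate.

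**Figure D1:**
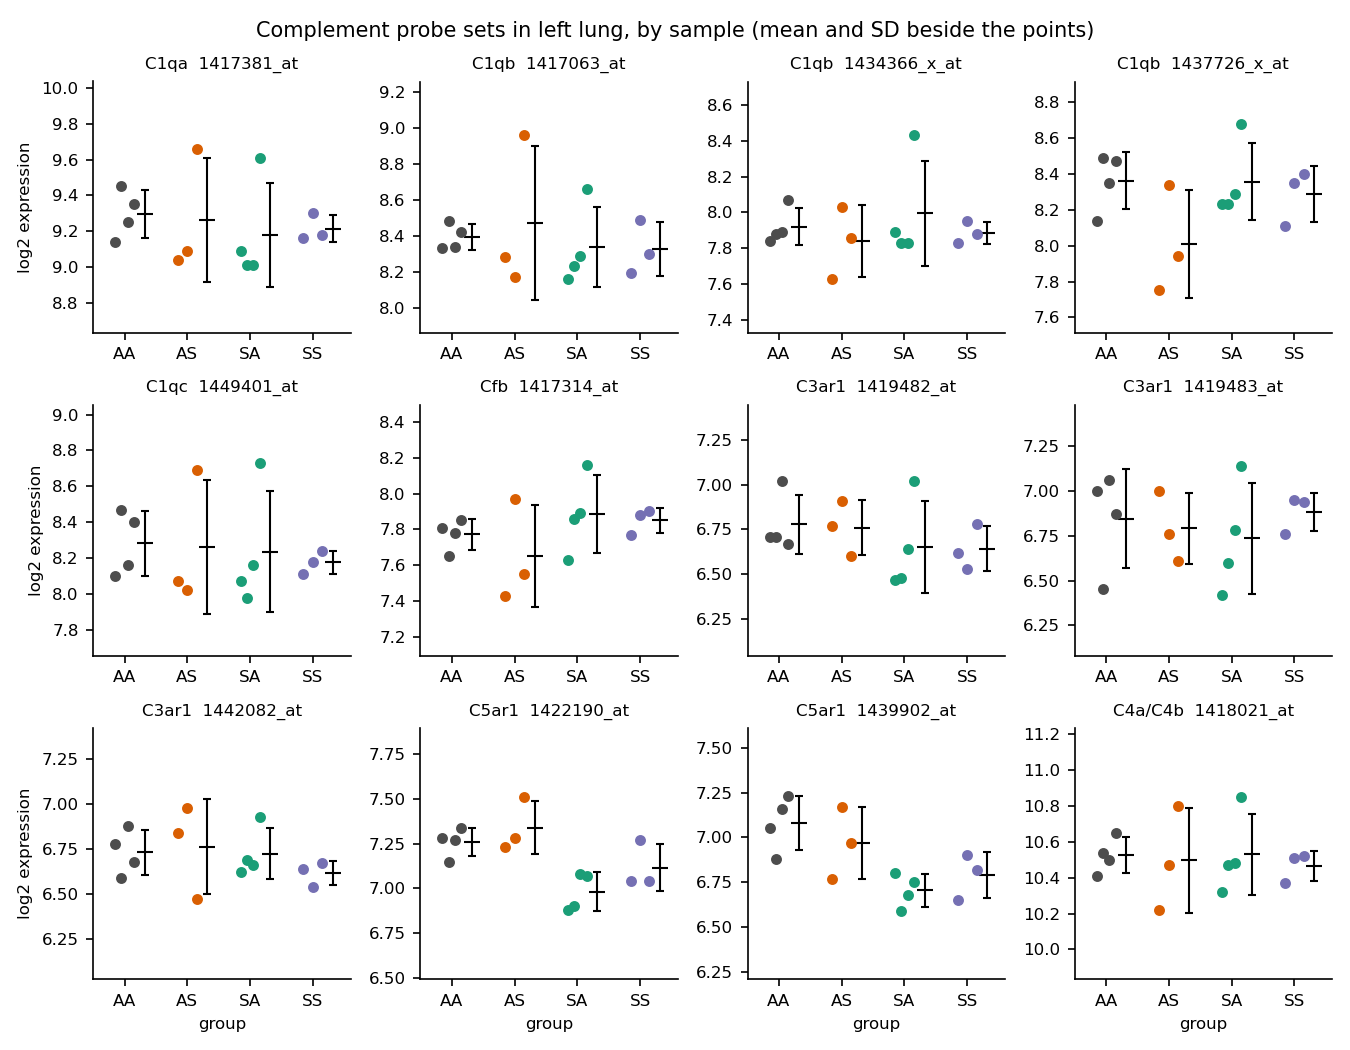
Log2 expression of the 11 member probe sets and of the probe set shared by C4a and C4b (vertical axes, each spanning 1.4 log2 units) by group (horizontal axis). Points are samples, with the mean and SD drawn beside them; both C5ar1 panels have all 4 SA points below all 4 AA points, and the panels of C1qa, C1qc and C1qb 1417063_at have single high points in AS and SA.

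C1qa encodes the A chain of C1q. Its log2 values at 1417381_at were 9.14, 9.45, 9.25 and 9.35 in AA, 9.04, 9.09 and 9.66 in AS, 9.09, 9.01, 9.01 and 9.61 in SA, and 9.16, 9.30 and 9.18 in SS. The highest value of AS belonged to its averaged sample and the highest of SA to replicate 4, and every pair of groups overlapped. The adult SHS difference of C1qa was -0.03 ± 0.16 (SE) after air in utero and 0.03 ± 0.16 after SHS in utero (limma, adjusted p = 0.926 and 0.953), and its average was 0.00 with a 95% interval from -0.24 to 0.24, or from 0.849 to 1.18 times on the linear scale. Without the averaged AS sample C1qa had -0.23 in AS minus AA and 0.15 in SS minus AS, in place of -0.05 for the latter (limma, adjusted p = 0.494 and 0.822). The adult SHS average of C1qa was -0.10 without that sample (limma, adjusted p = 0.571).

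C1qc, the C chain, had 8.10, 8.47, 8.16 and 8.40 in AA, 8.07, 8.02 and 8.69 in AS, 8.07, 7.98, 8.16 and 8.73 in SA, and 8.11, 8.18 and 8.24 in SS at 1449401_at. The same pair of samples stood highest as for C1qa, and the groups overlapped throughout. The average adult SHS difference of C1qc was -0.04 ± 0.13 (limma, adjusted p = 0.862), with an interval from -0.31 to 0.22. AS minus AA of C1qc was -0.02 ± 0.18 with the averaged AS sample and -0.24 without it (adjusted p = 0.95 and 0.548). The adult SHS average of C1qc was -0.15 without that sample (limma, adjusted p = 0.45).

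C1qb, the B chain, has 3 probe sets, and they disagreed in the averaged AS sample. The brightest, 1417063_at, had 8.33, 8.48, 8.34 and 8.42 in AA, 8.28, 8.17 and 8.96 in AS, 8.16, 8.23, 8.29 and 8.66 in SA, and 8.19, 8.49 and 8.30 in SS. At 1437726_x_at the values were 8.14, 8.49, 8.35 and 8.47 in AA, 7.75, 8.34 and 7.94 in AS, 8.23, 8.23, 8.29 and 8.68 in SA, and 8.11, 8.35 and 8.40 in SS. The averaged AS sample was thus the highest of all 14 at the first probe set and the second lowest at the other. Its arrays, AS replicates 3 and 4, had 8.95 and 8.97 at the first. At 1437726_x_at they lay apart, at 7.75 and 8.14, so the low rank there holds for their mean. At the remaining one, 1434366_x_at, the averaged AS sample had 7.86 within a range of 7.63 to 8.43 over all samples. Names ending in x_at mark probe sets whose probes may also match other transcripts. AS minus AA was 0.08 ± 0.16 at the brightest probe set, -0.08 ± 0.13 at 1434366_x_at and -0.35 ± 0.14 at 1437726_x_at, the last with an unadjusted p of 0.0265 and an adjusted p = 0.19 (limma). Without the averaged AS sample the brightest probe set had -0.17 in place of 0.08 (adjusted p = 0.558), so its sign rests on that sample. At 1437726_x_at the difference ran from -0.52 without AS replicate 2 to -0.22 without AS replicate 1, and did not pass in either case.

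**Figure D2:**
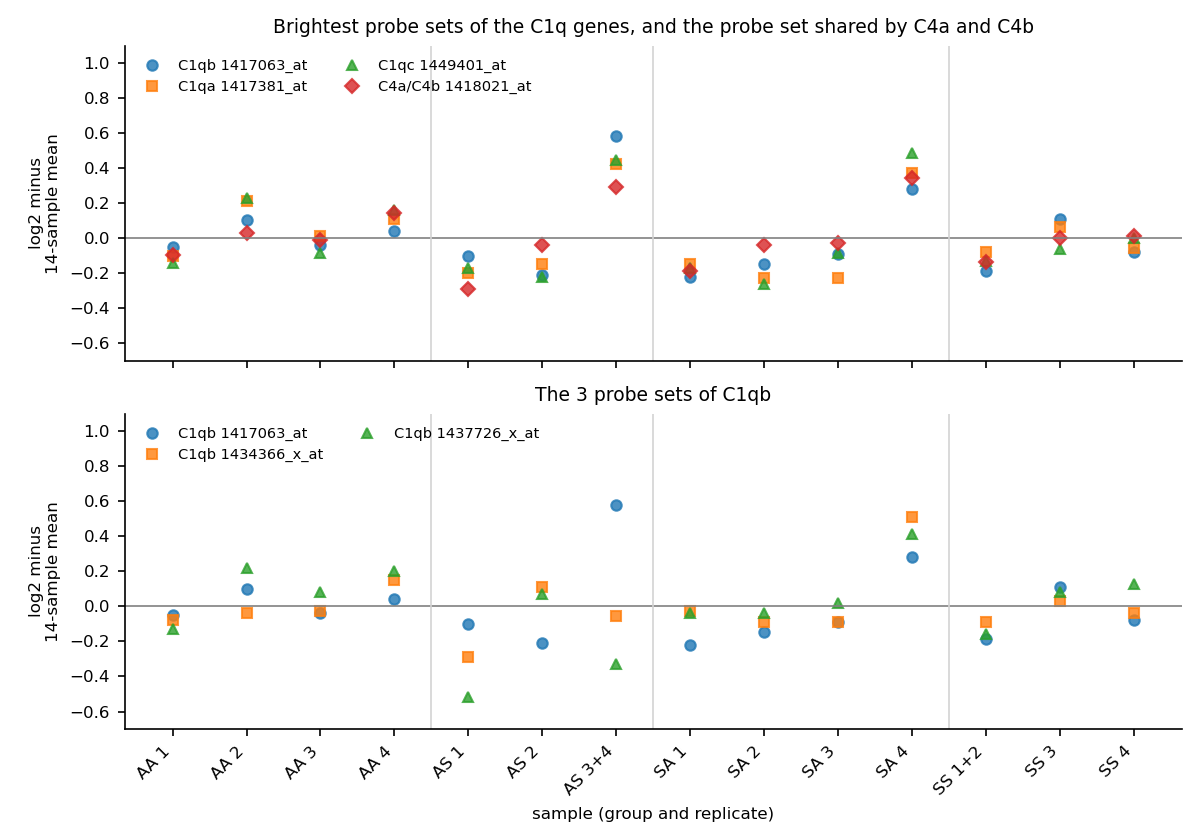
Log2 value minus the mean of the 14 samples (vertical axis) for each sample (horizontal axis; vertical lines separate the groups AA, AS, SA and SS). The upper panel holds the brightest probe sets of the C1q genes and the probe set shared by C4a and C4b. All are high in AS replicates 3 and 4 (averaged) and in SA replicate 4. In the lower panel the 3 probe sets of C1qb part in the averaged AS sample.

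At their brightest probe sets the 3 C1q genes followed each other from sample to sample. Over 14 samples, Pearson's r was 0.95 between C1qa and C1qc, 0.90 between C1qa and C1qb, and 0.89 between C1qb and C1qc at their brightest probe sets, with Spearman's rho of 0.84, 0.83 and 0.85. These are 3 of 11 correlations computed, and their permutation p-values for r, adjusted over the 11, were 0.00016, 0.00016 and 0.0004. With the averaged AS sample and SA replicate 4 left out, r was 0.86, 0.78 and 0.77 over 12 samples. After each group's mean was subtracted, r was 0.96, 0.92 and 0.90. The probe set shared by C4a and C4b followed C1qa as well (r = 0.85, rho = 0.82, adjusted permutation p = 0.00044 for r), with r = 0.62 without the same 2 samples.

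Within C1qb the probe sets went together less. The brightest one had r = 0.06 with 1437726_x_at and 0.34 with 1434366_x_at over 14 samples (rho = 0.42 and 0.32, adjusted permutation p for r = 0.83 and 0.22). Without the averaged AS sample these were 0.63 and 0.64. Both x_at probe sets correlated with each other at r = 0.79 (rho = 0.70, adjusted permutation p = 0.0022 for r), and at 0.52 without AS replicate 1 and SA replicate 4.

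In the averaged AS sample and SA replicate 4, the levels of macrophage and erythroid markers were as follows, each as the mean log2 level of a list relative to the AA mean. Interstitial macrophage and monocyte markers (14 genes, such as Csf1r and Cx3cr1) were at 0.02 and 0.11, within and above the AA range of -0.04 to 0.04. Alveolar macrophage markers (11 genes) were at 0.16 in both, against -0.09 to 0.06 in AA. Erythroid markers (3 genes) were at 0.60 and 2.15, against -0.60 to 0.76. AS replicate 2, where C1qa stood at 9.09, had 0.17 for alveolar macrophage markers and 0.86 for erythroid markers. The interstitial and erythroid levels of SA replicate 4 were the highest of the 14 samples. The part of these markers in the C1q values was not tested. A change in the number of cells of a type and a change in RNA per cell cannot be told apart in whole lung RNA.

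Among genes with a mean log2 value of at least 7 (11041 candidates), the 3 whose brightest probe set was most like each C1q gene over the 14 samples were as follows. For C1qa they were C1qc (r = 0.95), Lrpap1, a chaperone of lipoprotein receptors (0.91), and C1qb (0.90). For C1qc they were C1qa, Cpxm1 (0.91) and Maged1 (0.90). For C1qb they were Tmem176b (0.94), Bod1 (0.93) and Smpd1, the acid sphingomyelinase (0.93). Taken within groups, these r were 0.91 to 0.96. They are descriptions of these 14 samples, with the averaged AS sample and SA replicate 4 included.

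The probe set shared by C4a and C4b, 1418021_at, had 10.41, 10.54, 10.50 and 10.65 in AA, 10.22, 10.47 and 10.80 in AS, 10.32, 10.47, 10.48 and 10.85 in SA, and 10.37, 10.51 and 10.52 in SS. C4b encodes the C4 that the C1 complex cleaves, and C4a is a close copy that the RefSeq gene table lists as a transcribed pseudogene. The groups overlapped at all pairs, and the average adult SHS difference was -0.04 ± 0.09 (limma, adjusted p = 0.798), with an interval from -0.24 to 0.15.

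Cfb, the serine protease of the alternative pathway convertase, had log2 values of 7.81, 7.65, 7.78 and 7.85 in AA, 7.43, 7.97 and 7.55 in AS, 7.63, 7.86, 7.89 and 8.16 in SA, and 7.77, 7.88 and 7.90 in SS. AS included both the lowest sample and the second highest, and all groups overlapped. Cfb had -0.12 ± 0.13 in AS minus AA, -0.04 ± 0.13 in SS minus SA and 0.20 ± 0.13 in SS minus AS (limma, adjusted p = 0.6, 0.927 and 0.541). AS minus AA of Cfb ran from -0.28 without AS replicate 2 to -0.01 without AS replicate 1, and SS minus AS from 0.36 to 0.09. The interval of the average adult difference was -0.27 to 0.11. Interferon gamma and NF-kB signals are known to induce Cfb. In the same average, 6 of 12 interferon gamma response genes fell and 0 rose (median -0.19, with Iigp1 at -0.63). Of 13 acute phase and NF-kB genes, 3 rose and 0 fell (median 0.16). The median over all genes was 0.00, and 5.95% of all probe sets passed. Genes of such lists are counted where any of their probe sets passed, while medians are of brightest probe sets. At brightest probe sets alone the counts were 6 and 2. The part of these genes in the Cfb values was not tested. The genes most like Cfb were Kctd9 (r = 0.89), Nasp (0.85) and Ybx3 (0.85).

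The receptor of C3a, C3ar1, has 3 probe sets, all dim. At the brightest, 1419483_at, the log2 values were 7.00, 6.45, 7.06 and 6.87 in AA, 7.00, 6.76 and 6.61 in AS, 6.42, 6.60, 6.78 and 7.14 in SA, and 6.76, 6.95 and 6.94 in SS. Samples within AA and SA lay further apart than any 2 group means. Over the 3 probe sets, AS minus AA ran from -0.05 to 0.03 and SS minus SA from -0.11 to 0.15, and the adult average from -0.04 to 0.05 (limma, adjusted p = 0.791 to 0.946). The widest interval of that average was -0.20 to 0.29. The probe sets correlated with each other at r = 0.65, 0.79 and 0.56 over 14 samples (rho = 0.70, 0.74 and 0.57, adjusted permutation p for r = 0.017, 0.002 and 0.048), and at 0.43, 0.69 and 0.52 when the 2 samples farthest from the median were left out. The genes most like C3ar1 were Nars, which charges asparagine tRNA (r = 0.87), the tubulin gene Tuba4a (0.85) and Trappc6b (0.85).

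The next question was what smoke before birth left behind in the adult lung. C5ar1, the receptor of C5a, was lower in mice exposed in utero at both of its probe sets, though neither passed the adjusted threshold. Both probe sets were dim, as those of C3ar1 were, with values near the array medians of 6.9 to 6.93. At 1422190_at the log2 values were 7.28, 7.15, 7.27 and 7.34 in AA, 7.23, 7.28 and 7.51 in AS, 6.88, 6.90, 7.08 and 7.07 in SA, and 7.04, 7.27 and 7.04 in SS. All 4 SA samples were below all 4 AA samples, while SS and AS overlapped through 1 SS sample. SA minus AA was -0.28 ± 0.08, or 0.824 times, with a 95% interval from -0.45 to -0.11 (limma, unadjusted p = 0.00378, adjusted p = 0.682), and SS minus AS was -0.22 ± 0.09 with an interval from -0.42 to -0.02 (adjusted p = 0.316). Without the averaged AS sample, the highest of AS at 7.51, SS minus AS was -0.14 (limma, adjusted p = 0.677).

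At 1439902_at, the dimmer probe set of C5ar1, the values were 7.05, 6.88, 7.16 and 7.23 in AA, 6.77, 7.17 and 6.97 in AS, 6.80, 6.59, 6.68 and 6.75 in SA, and 6.65, 6.90 and 6.82 in SS. Again all 4 SA samples were below all 4 AA samples, and AS and SS overlapped. SA minus AA was -0.38 ± 0.10, or 0.768 times, with an interval from -0.58 to -0.18 (limma, unadjusted p = 0.00126, adjusted p = 0.646), and SS minus AS was -0.18 ± 0.11 with an interval from -0.42 to 0.06 (adjusted p = 0.496). The order of group means differed between the probe sets at the top, where AS led at 1422190_at (7.34, against 7.26 in AA) and AA led at 1439902_at (7.08, against 6.97 in AS). Without the averaged AS sample, AS minus AA at 1422190_at was -0.01 in place of 0.08, so AS led there through that sample. SS minus AS at 1439902_at stayed at -0.18 without it. At both probe sets, SS (7.12 and 6.79) and SA (6.98 and 6.70) came last. Neither pair of neighbours at the top or at the bottom differed beyond its interval.

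**Figure D3:**
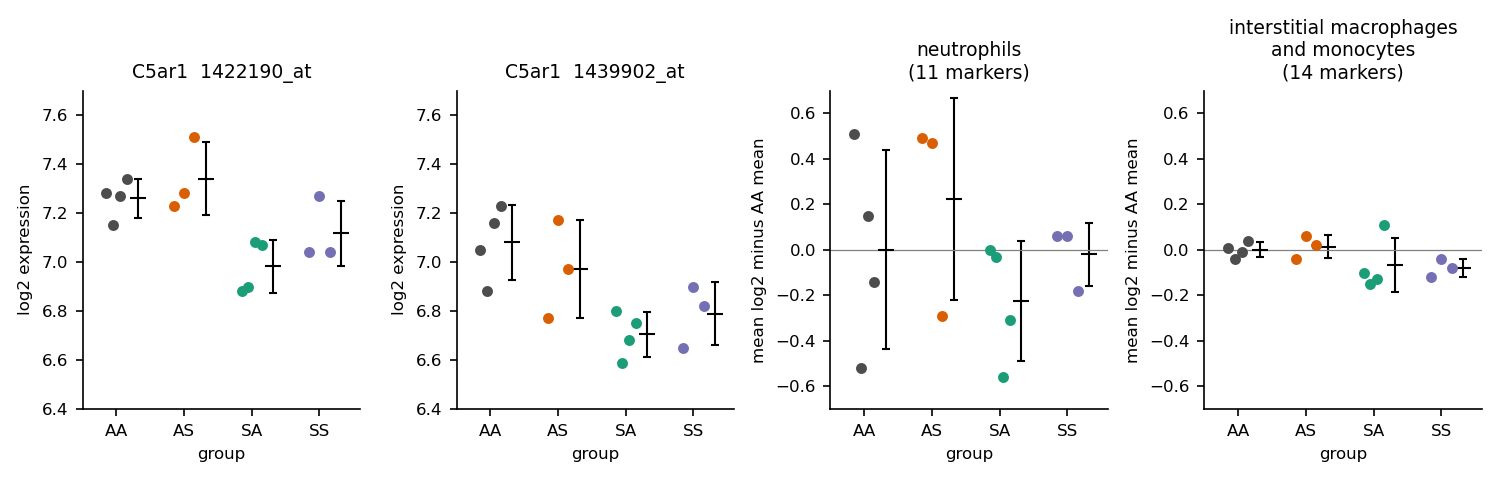
Log2 expression of both C5ar1 probe sets (left panels) and the mean log2 level of neutrophil and of interstitial macrophage and monocyte markers relative to the AA mean (right panels), by group. Points are samples, with mean and SD beside them. SA lies below AA without overlap for C5ar1. Both marker lists overlap between SA and AA, that of interstitial macrophages and monocytes only through SA replicate 4 (0.11).

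Averaged over both adult exposures, the in-utero difference of C5ar1 was -0.25 ± 0.06 at 1422190_at and -0.28 ± 0.07 at 1439902_at, with intervals from -0.38 to -0.12 and from -0.44 to -0.12 (limma, adjusted p = 0.114 and 0.133). These were the 2 of 11 member probe sets at an unadjusted p under 0.05 and lower in that average, where 5.61% of all probe sets were so. At the adjusted threshold 0 of 11 passed (background 0.284%). With all 16 arrays counted as separate samples both passed, at -0.28 and -0.30 (adjusted p = 0.04 and 0.0445), and over every alternative the adjusted p ran from 0.04 to 0.285 and from 0.0445 to 0.286. No alternative turned the sign of either. Both probe sets correlated at r = 0.73 over 14 samples (rho = 0.80, adjusted permutation p = 0.0052 for r), at 0.87 without the averaged AS sample and SA replicate 1, and at 0.43 after the group means were subtracted.

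Values of several marker lists are given beside those of C5ar1. Neutrophil markers (11 genes, such as S100a8, Cxcr2 and Ngp) had an in-utero average of -0.26 in the median and no gene that passed (0 of 11), and their mean level relative to AA ran from -0.52 to 0.51 in AA, -0.29 to 0.49 in AS, -0.56 to 0.00 in SA and -0.18 to 0.06 in SS. Interstitial macrophage and monocyte markers had -0.09 in the median, again with 0 genes of 14 called, and ran from -0.04 to 0.04 in AA, -0.04 to 0.06 in AS, -0.15 to 0.11 in SA and -0.12 to -0.04 in SS. Adipocyte markers had -0.14 in the median with 0 genes of 11 called, and ran from -0.16 to 0.08 in AA, -0.12 to 0.07 in AS, -0.30 to -0.14 in SA and -0.26 to 0.02 in SS. Glucocorticoid-induced genes (14) ran from -0.27 to 0.25 in AA, 0.25 to 0.50 in AS, -0.67 to 0.00 in SA and 0.70 to 0.85 in SS, with 1 gene lower in the in-utero average (median 0.05). Of the 16 immediate early genes, which respond within minutes to handling and other stimuli, 10 fell in the in-utero average (median -1.19), where 0.284% of all probe sets passed. Their mean level ran from -0.34 to 0.41 in AA, 0.31 to 1.60 in AS, -0.84 to -0.50 in SA and -0.93 to -0.32 in SS, so that SA lay below AA without overlap, as for C5ar1. The part of these lists in the C5ar1 values was not tested. The genes most like C5ar1 in level over the 14 samples were Eps15l1 (r = 0.88), Nectin2 (0.87) and 3110082I17Rik (0.84), with 0.76, 0.70 and 0.76 within groups.

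No other member probe set had an unadjusted p under 0.05 after smoke in utero (limma). In SA minus AA, 0 of 11 probe sets passed, as did 0.0% of all probe sets, and 2 had an unadjusted p under 0.05, both of C5ar1. In SS minus AS, 0 of 11 passed (background 0.968%), with 1 at an unadjusted p under 0.05. The C1q genes had in-utero averages of -0.08 for C1qa, -0.06 for C1qc and -0.10, 0.06 and 0.14 at the probe sets of C1qb. Without the averaged AS sample C1qa had 0.02, C1qc 0.05 and C1qb at 1417063_at 0.03, so these signs rest on that sample. Cfb had 0.16 ± 0.09 (interval -0.03 to 0.35), and C3ar1 ran from -0.12 to -0.01. The adjusted p of these 9 probe sets ran from 0.508 to 0.983 (limma).

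**Figure D4:**
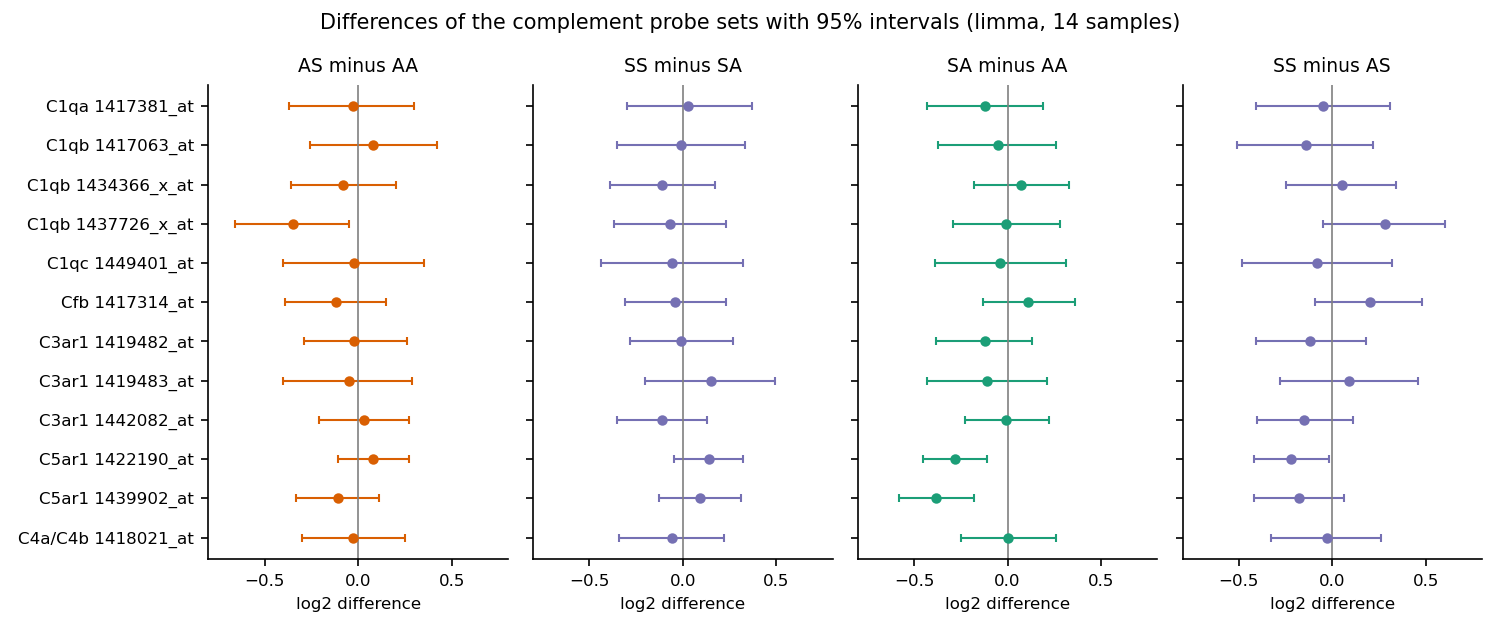
Differences between groups on the log2 scale (horizontal axis) with 95% intervals for each member probe set and the probe set shared by C4a and C4b (vertical axis), in 4 comparisons that differ in 1 exposure. Both C5ar1 intervals in SA minus AA lie below 0; most others span 0, and 0 of 11 member probe sets passed the adjusted threshold in any panel.

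Smoke at both times was set against neither, and the adult effects of the 2 in-utero groups against each other. In SS minus AA, 0 of 11 member probe sets passed (background 0.4%), with 1 at an unadjusted p under 0.05, C5ar1 at 1439902_at (-0.29 ± 0.10, adjusted p = 0.313 by limma). In the interaction, which is the adult effect after SHS in utero minus that after air in utero, 0 of 11 passed (background 0.131%) and 0 had an unadjusted p under 0.05. Member interactions ran from -0.14 at C3ar1 to 0.28 at C1qb, and their 95% intervals lay within -0.57 to 0.71, or 0.27 to 0.53 to either side of the estimate at single probe sets. SA minus AA, AS minus AA and SS minus AA share the AA samples and are not independent of each other.

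Groups without overlap were also counted among the members. In SA minus AA, 2 of 11 did not overlap, both of C5ar1 and both lower, where 3.68% of all probe sets did not overlap in either direction and 1.69% were lower. In the other 4 pairwise comparisons 0 of 11 were free of overlap, where the backgrounds were 16.3% in AS minus AA, 16.7% in SS minus SA, 18.6% in SS minus AS and 14.1% in SS minus AA. SA minus AA compares 4 samples with 4, and the others 3 with 4 or 3 with 3, so their backgrounds are not on 1 scale.

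Beyond the members, 43 of 51 other complement genes were named on the array, with 74 probe sets. In 7 of the 8 comparisons 0 of these 74 passed (limma; at an unadjusted p under 0.05 there were 4 to 13); in the average adult SHS effect 4 of 74 passed, or 5.41%, close to the 5.95% of all probe sets. The median over the 43 brightest probe sets in that average was 0.02, and 0.00 over all genes. Of these 4 calls, 2 were rises and 2 were falls, and 39 genes had none. In the same average, 10 of 14 glucocorticoid-induced genes rose (median 0.83) and 8 of 16 immediate early genes rose (median 0.56), and their part in these calls was not tested.

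Properdin (Cfp), which stabilises the alternative pathway convertase, fell by 0.35 on the log2 scale at its brightest probe set (SE 0.08, interval -0.51 to -0.19, adjusted p = 0.0179 by limma). Its values were 8.04, 8.25, 7.78 and 8.21 in AA and 7.76, 7.67 and 7.55 in AS, and 8.14, 8.22, 8.41 and 8.29 in SA and 8.08, 7.86 and 8.01 in SS. Smoke-exposed adults were below their air controls in both in-utero groups without overlap. Of all probe sets, 16.3% did not overlap in AS minus AA and 16.7% in SS minus SA, in either direction. At this probe set of Cfp those comparisons gave -0.41 and -0.28 and did not pass (limma, adjusted p = 0.0642 and 0.226). The other probe set of Cfp had 0.08 (adjusted p = 0.572), and without SS replicate 3 the adjusted p of the first was 0.0583.

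Cd93, a surface receptor of endothelium and myeloid cells first described as a C1q receptor, rose by 0.26 ± 0.06 (interval 0.14 to 0.39, adjusted p = 0.0206 by limma) at the brightest of its 5 probe sets, where the other 4 had 0.13 to 0.18 and did not pass. Without SS replicate 3 its adjusted p was 0.0611. C9, the pore-forming component, rose by 0.33 ± 0.08 (adjusted p = 0.0363) at a dim probe set (means 4.59 in AA, 5.05 in AS, 4.67 in SA and 4.87 in SS), and Cr1l, the rodent regulator Crry, fell by 0.43 ± 0.11 (adjusted p = 0.0334) at another dim one while its brighter ones had -0.06 and -0.07. C9 passed in 10 of 22 alternatives and Cr1l in 10 of 21.

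**Figure D5:**
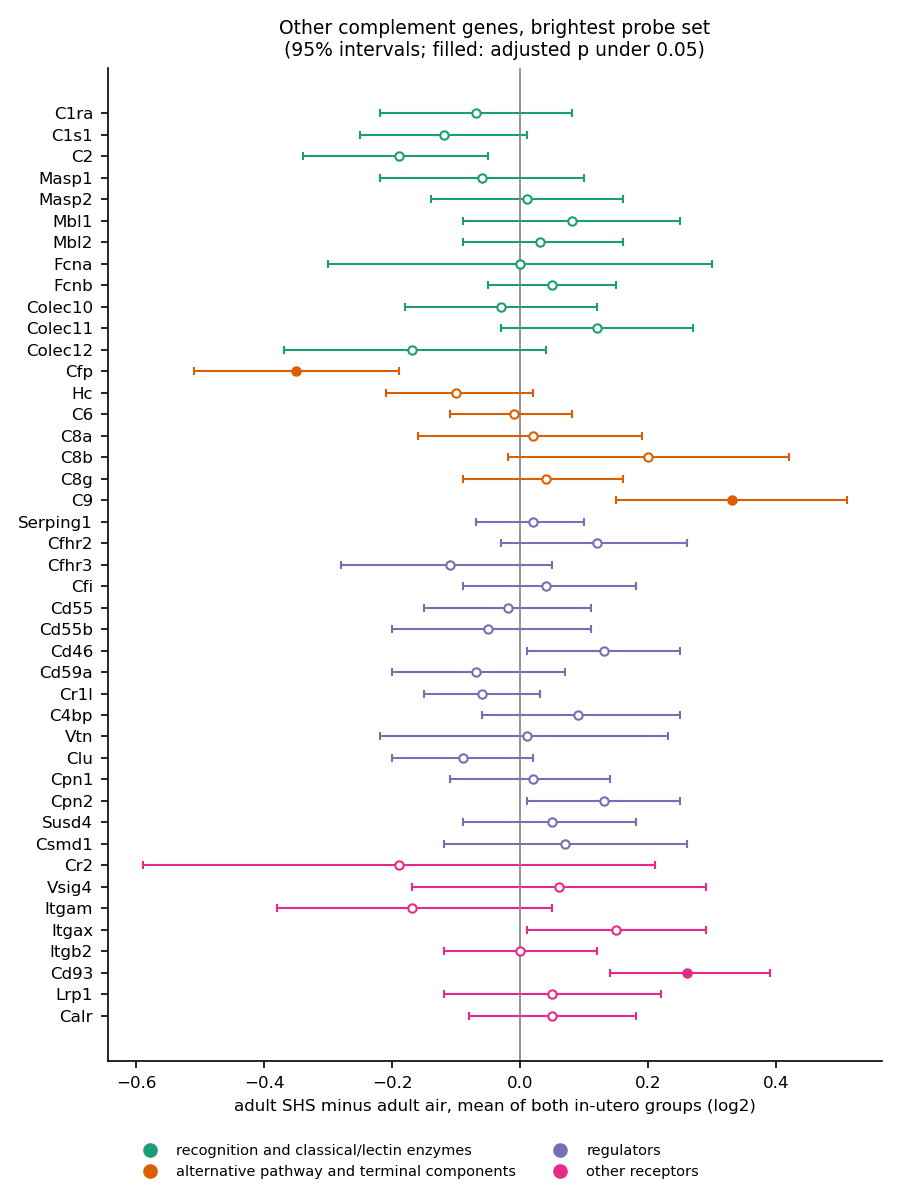
Average adult SHS difference on the log2 scale (horizontal axis) with 95% intervals at the brightest probe set of 43 other complement genes (vertical axis), coloured by role. Filled points passed the adjusted threshold: Cfp is lower, and C9 and Cd93 are higher.

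By role, the largest differences at brightest probe sets outside the calls above are given as values. Among recognition molecules and classical and lectin enzymes (12 genes) they were C2 at -0.31 in AS minus AA, Mbl1 at 0.19 in SS minus SA, C2 at -0.16 in SA minus AA, Mbl2 at -0.33 in SS minus AS and Colec12 at 0.18 in the in-utero average. In the alternative pathway and terminal components (7 genes) they were C9 at 0.46, Cfp at -0.28, C8g at 0.20, Cfp at 0.32 and Cfp at 0.26, in the same order. Among regulators (16 genes) they were Csmd1 at 0.18, Cpn2 at 0.20, Cd59a at 0.26, Csmd1 at -0.18 and Cd59a at 0.22. Among other receptors (8 genes) they were Itgax at 0.24 and then Cr2, the C3d receptor of B cells, at -0.55, -0.19, -0.91 and -0.55. In SS minus AA the list leaders were C2 (-0.23), C9 (0.28), Cfhr2 (0.22) and Cr2 (-0.74), and in the interaction Mbl2 (-0.32), C9 (-0.26), Csmd1 (-0.22) and Cr2 (-0.72). In the adult average C2 led the first list at -0.19 and Cpn2 the regulators at 0.13. None of these values passed the threshold (limma, adjusted p = 0.0641 to 0.961).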

How the data were processed

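Left lung RNA was measured on 16 arrays, from 16 mice according to the design text, and the values the authors deposited, 2.404 to 15.11, were taken as log2 because of their range and spread. Array medians were nearly equal. How the values were summarised and normalized is not given in the sources used here. The submitters' processing notes name limma without a version. After 64 control probe sets were left out, 45037 were fitted with limma 3.58.1 in R 4.3.3, 1 mean per group over 14 samples (10 residual degrees of freedom), and p-values were adjusted by Benjamini-Hochberg within each of 8 comparisons. No probe set was dropped for dimness, and no detection call was made. The number of arrays limits the precision.

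Probe sets were named from the platform annotation (34945 with 1 symbol, 932 with several, 9160 with none), and 34741 of these names were matched by Entrez identifier to the RefSeq gene table. The labels call the replicates biological, 1 animal each, and give no litter, batch or date. Equal replicate numbers did not clearly pair samples. Across groups, 3 of 18 same-numbered pairs and 12 of 55 differently numbered pairs correlated above 0.1 (median r 0.0479 and -0.036). The brightest probe set of a gene has its highest mean. The text names every member probe set, other complement genes past the threshold or with the largest change in their list, and the 3 genes most like each member. Members and lists were chosen with earlier results of these data known. The fit was tested on simulated data. Permutation tests used 100000 resamples and were two-sided. Alternatives were other countings of arrays, weights, normalizations, filters, moderation, a replicate block and leaving out samples.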

Additional observations from a re-analysis of the deposited data

Results flagged for a closer look

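Within groups of 4, the extreme sample's gap to its nearest neighbour was set against the group's range, and 4 of 22 groups exceeded Dixon's 95% critical value; chance exceeds it in about 1 of 20, but the 22 groups are 11 probe sets in the same 8 samples and are not independent. In SA replicate 4, C1qa stood at 9.61 (the other SA samples were at 9.01 to 9.09), C1qb at 8.43 at 1434366_x_at (others 7.83 to 7.89) and C1qb at 8.68 at 1437726_x_at (others 8.23 to 8.29). In AA replicate 3, C3ar1 stood at 7.02 at 1419482_at (others 6.67 to 6.71). Without the averaged AS sample and SA replicate 4 together, 0 of 11 member probe sets passed in any of the 8 comparisons.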

How the results depend on the processing

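Counts of member probe sets past the threshold stayed at 0 in 188 of 189 recomputations over the 8 comparisons and 24 alternatives; leaving out both the averaged AS sample and SA replicate 4 was added after seeing the data. The exception was the in-utero average with all 16 arrays counted separately, where 2 passed, both of C5ar1; near-identical arrays count there as separate animals. With the replicate number as a block, 0 of 11 passed in every comparison, with a smallest adjusted p of 0.0835 (limma, in-utero average). Of 2039 single differences recomputed, 2029 stayed within 1 residual SD of the reported value on the same side of the threshold, 8 moved further and 2 newly passed; 170 changed sign, but 0 of them among the 13 reported differences of at least 0.2. Counts over all probe sets varied more: AS minus AA had 699 in the reported fit, 47 with only AA and AS fitted and 3565 with all 16 arrays.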
